A study of Mus musculus with 6 samples.

Results

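The 30 most abundant long non-coding RNAs (lncRNAs) of cultured mouse spermatogonial stem cells (SSCs) were described, out of 73710 lncRNAs listed in at least 1 of 6 libraries. They were chosen by their measured values, as the transcripts with the highest sum of raw read counts over all 6 libraries. The lncRNAs n271995 and TCONS_00040388 and those numbered TCONS_00074926 to TCONS_00074946 were set aside before ranking, and since the highest of them stood at rank 70, this changed no member. Levels, ranks and shares of reads are therefore given without a test. Differences between culture conditions, and between replicates, were not used in the choice and were tested.

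Cultures were in normal medium (N), after 18 h without glial cell line-derived neurotrophic factor (GDNF) (0h), or after the same 18 h followed by 8 h with GDNF added back (8h), with 2 replicates in each condition. All groups were C57BL/6 cells enriched for the surface protein Thy1 from the testes of mice aged 6 to 8 days (5 mice per isolation), at passages 10 to 20. They grew on inactivated STO cells, a mouse fibroblast feeder line, in serum-free medium with 20 ng/ml GDNF, 150 ng/ml of its co-receptor GFRA1 and 1 ng/ml FGF2. Germ cell clumps were taken off the feeder with a pipette, so a culture may hold differentiating germ cells and some feeder cells beside true stem cells. The files list lncRNAs under NONCODE and assembly numbers and hold 0 of 8 marker gene symbols searched for germ cells and feeder cells, so the cell type was not checked here.

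LncRNAs are long transcripts with little or no coding potential. Some act in the nucleus on chromatin or splicing, some act in the cytoplasm, and for most no role is known. GDNF, which Sertoli cells make in the testis, signals through GFRA1 and the receptor RET and sustains SSC self-renewal. Identifiers beginning with n are lncRNAs of the NONCODE database, called known here, and identifiers beginning with TCONS are transcripts the authors assembled from these reads and classed as non-coding, called predicted. None of the 30 identifiers was paired with a gene name, position or strand (0 of 30 matched a RefSeq symbol or synonym), so no role can be given for them, and reads of a member may also belong to an overlapping gene or a near-identical copy.

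Libraries held between 7685843 and 8497549 reads counted on lncRNAs, and 58925 to 62036 lncRNAs each. The median listed lncRNA had 11 counts in every library. A count of 3, below which a transcript cannot be told from absence, was between 3.53e-05% and 3.90e-05% of a library. All 30 members were listed in all 6 libraries, and the lowest count of any member in any library was 6054, so counting error was small for them and the spread between replicates set the precision. Bulk counts give no separation between fewer cells of a type and less RNA per cell.

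The 30 lncRNAs took 34.6% ± 1.02 (SD, n = 6) of all reads counted on lncRNAs. Their share was 34.7% and 34.3% in the N replicates, 36.5% and 34.7% in the 0h replicates, and 33.7% in both 8h replicates. The 8h libraries thus had the lowest shares, while N and 0h overlapped. The next 100 lncRNAs by the same ranking (ranks 31 to 130) together took 7.97% ± 0.355, about as much as the first member, n422895, alone. Among the 30, ranks 1 to 9 took 30.2% ± 1.04 and ranks 10 to 30 took 4.42% ± 0.201. The plot of read share in each library gives the single values. From rank 9 to rank 10 the summed counts fell only 1.07-fold, so no step lay there.

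**Figure D1:**
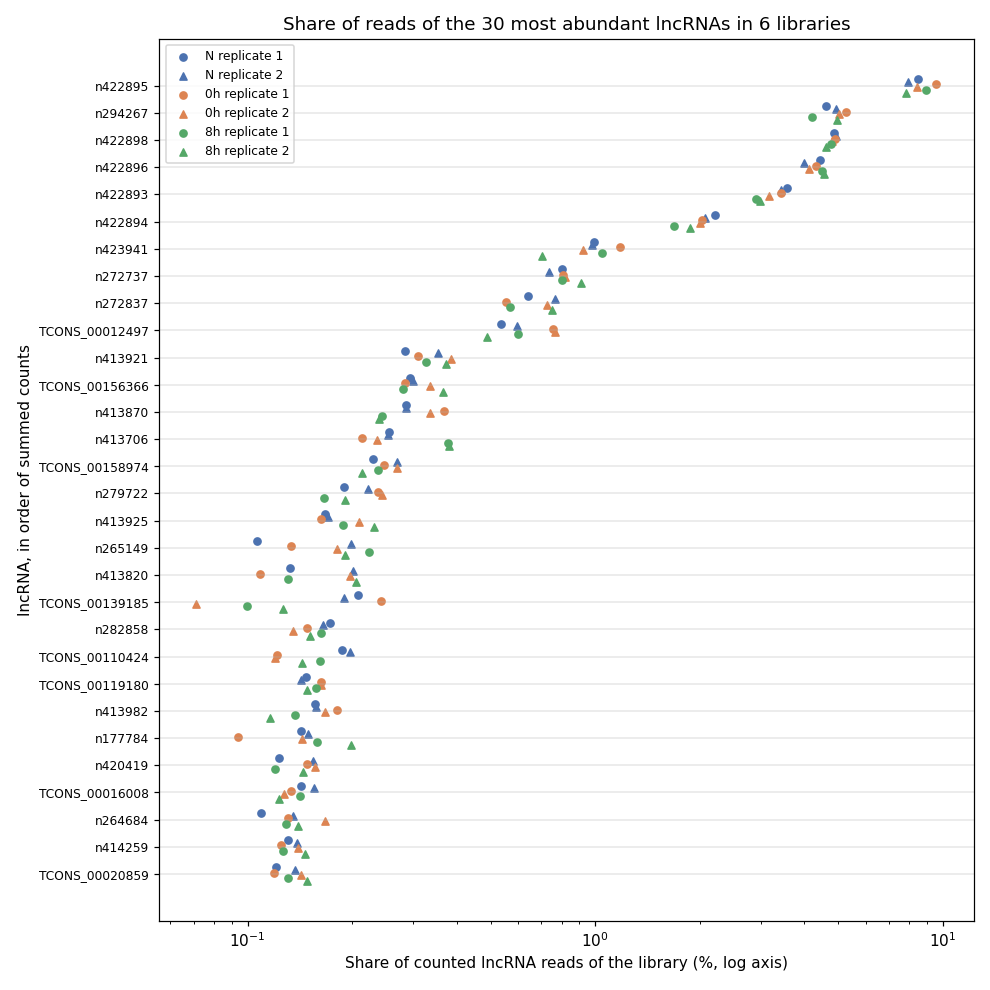
Share of reads counted on lncRNAs (percent, log axis) taken by each of the 30 lncRNAs, in rank order from top to bottom, with 1 point for each of the 6 libraries. The summed counts fall 64.0-fold from rank 1 to rank 30, and the 6 points of most lncRNAs lie close together, with TCONS_00139185 spread most widely.

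Of the 30, 22 (73.3%) were known and 8 were predicted, against 54 known among the next 100 and 39.1% known among all 73710. The known members took 32.7% ± 0.928 of reads and the predicted members 1.91% ± 0.121. Known members had the lower median length, 1158.5 bp against 4605.5 bp for predicted members, though the longest member was known and the shortest predicted. Over all listed lncRNAs the order was the other way, with medians of 1912 bp (known) and 1079 bp (predicted). Over all 30 the length ran from 285 bp (TCONS_00139185) to 7003 bp (n177784), with a median of 1690.5 bp, between 3039.5 bp for the next 100 and 1298 bp for all listed lncRNAs. Of 9 members shorter than 1000 bp, 8 were known, and of 7 members of 3000 bp or more, 5 were predicted.

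The first 6 members stood well above the rest. The highest, n422895 (1612 bp), had 662613 and 652643 counts in N, against 780311 and 715913 in 0h and 687709 and 629330 in 8h, which was 8.54% ± 0.65 of reads. It was first in every library, and its raw counts were highest in the 0h replicates. After scaling to library size (TMM, below), 0h replicate 2 fell below N replicate 1 (686742 against 691797), so these conditions overlapped. Both scaled 0h values stayed above the 8h values. By share of reads, however, 0h replicate 2 was below 8h replicate 1 (8.42% against 8.95%). Second by 1.76-fold was n294267 (838 bp), with 360262 and 405503 counts in N, against 427534 and 427445 in 0h and 322902 and 397495 in 8h (4.83% ± 0.373). After it came n422898 (2883 bp), with 380727 and 403941 counts in N, against 398902 and 406685 in 0h and 366240 and 369201 in 8h (4.81% ± 0.113). These 2 changed places between libraries, since n294267 ranged over ranks 2 to 4 and n422898 over ranks 2 to 3.

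The fourth member, n422896 (690 bp), had 347314 and 327163 counts in N, against 351234 and 349241 in 0h and 345488 and 364387 in 8h (4.31% ± 0.227). Its 0h counts were both above its N counts, and its 8h counts overlapped both. After scaling to library size (TMM, below) all 3 conditions overlapped. The fifth, n422893 (2555 bp), had 278336 and 281252 counts in N, against 277690 and 268162 in 0h and 223521 and 238929 in 8h (3.24% ± 0.262), and the sixth, n422894 (1085 bp), had 173660 and 169829, 165218 and 169661, and 129408 and 149699 (1.98% ± 0.182). Both held their rank in all 6 libraries, and both had their lowest counts in the 8h replicates.

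Of the first 6 members, 5 carry NONCODE numbers within 10 of each other (n422893, n422894, n422895, n422896 and n422898). Together these 5 took 22.9% ± 0.872 of reads, between 21.9% and 24.3% in single libraries. The only other members with numbers that close were n413921 and n413925. The ratio of counts of n422893 over n422894 was 1.64 ± 0.0572 (SD, n = 6), between 1.58 and 1.73 in single libraries. It varied more for n422895 over n422896, from 1.73 to 2.22, and for n413921 over n413925, from 1.61 to 2.07. A pair without neighbouring numbers, n422898 over n294267, had ratios from 0.929 to 1.13. Neighbouring numbers do not show that transcripts overlap, and whether these share reads was not tested.

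Ranks 7 to 10 each took less than 1% of reads on average. For n423941 (2351 bp) the counts were 77838 and 80394 in N, against 95717 and 78267 in 0h and 80159 and 56120 in 8h (0.969% ± 0.157), and the lowest and the highest of these belonged to different conditions. For n272737 (379 bp) they were 63012 and 60427, 65679 and 69402, and 61705 and 73081 (0.813% ± 0.057). Its 0h counts were above its N counts without overlap, and its 8h counts overlapped both. For n272837 (686 bp) they were 50147 and 62952, 44982 and 61848, and 43827 and 60289 (0.668% ± 0.0937), and here replicate 2 was above replicate 1 in each condition. The tenth was the most abundant predicted lncRNA, TCONS_00012497 (5616 bp), with 42043 and 49056 counts in N, against 61344 and 65189 in 0h and 46031 and 39104 in 8h (0.624% ± 0.114). Its 0h counts stood above the other 4 without overlap. Ranks 11 to 30 had mean shares from 0.337% (n413921) down to 0.133% (TCONS_00020859).

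Dividing by length changed the order. On the deposited RPKM scale (reads scaled by transcript length and by the reads counted on lncRNAs), n422896 was highest at 62529 ± 3290 (mean ± SD, n = 6), followed by n294267 at 57642 ± 4453 and n422895 at 52959 ± 4031. These 3 stood far above the rest. The 379 bp n272737 rose from the eighth place by counts to the fourth by RPKM, at 21456 ± 1505, and TCONS_00139185 from rank 20 to rank 9, at 5482 ± 2357. At the other end, n177784, the longest member, had 210.7 ± 47.8 and was at rank 220 of all lncRNAs, and TCONS_00016008 (5480 bp) had 250.1 ± 21.2. The highest member mean was 297-fold the lowest. Ranked by mean RPKM, 17 of the 30 would remain among the first 30, and 7 of the 8 predicted members would leave. Predicted lncRNAs would not become fewer among the first 30, since others would enter. These are TCONS_00076849, TCONS_00072821, TCONS_00145016, TCONS_00034149, TCONS_00162586, TCONS_00164259, TCONS_00053483 and TCONS_00000913. The known lncRNAs entering would be n417952, n419655, n270541, n271840 and n295935.

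Coverage, the authors' percentage of a transcript's length reached by reads, had a median of 95.9% over the 30, against 92.4% for the next 100 and 36.4% for all listed lncRNAs. It was at least 90% in 19 members and under 70% in 6. Low coverage was also found at high counts. The fifth most abundant member, n422893, had a coverage of 44.6% ± 0.958, between 43.72% and 46.46%, so that all its reads lay within about 1139 of 2555 bases. For n420419 (1025 bp) it was 39.22% to 39.32% in every library, which leaves about 622 bases without reads at 9219 to 13289 counts, and for n264684 (1074 bp) it was 49.72% to 50.65%. Reads were thus missing from a near-constant share of these annotated transcripts in every library. An RPKM over the full annotated length understates the level of the covered stretch in such cases.

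TCONS_00139185, the shortest member, had the most variable coverage, at 53.33% and 87.72% in N, against 53.68% and 55.44% in 0h and 52.63% and 56.49% in 8h. The single high value, in N replicate 2, came with 15543 counts, fewer than the 16301 of N replicate 1. Of the other members under 70%, n265149 had 66.5% and n413982 had 64.0%, and these varied over 60.18% to 72.47% and 59.25% to 67.86%. The plot of coverage against RPKM sets these 6 apart from the 24 others.

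**Figure D2:**
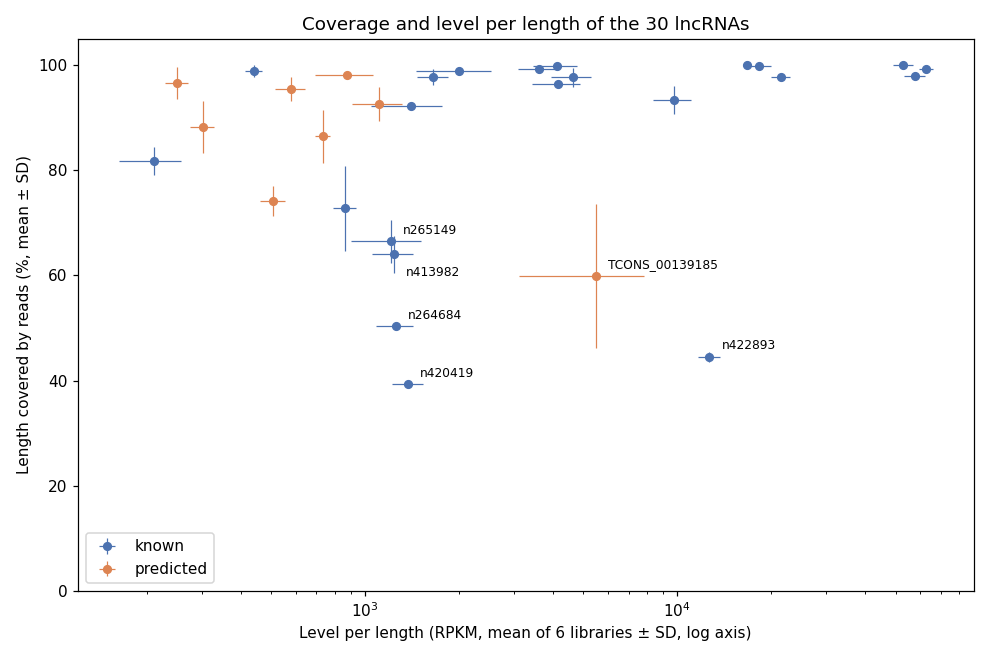
Coverage (percent of annotated length reached by reads) against RPKM (log axis) for the 30 lncRNAs, as mean ± SD over 6 libraries, known in blue and predicted in orange. The 6 labelled lncRNAs lie under 70% coverage, among them n422893 at 44.6% with an RPKM of 12678.

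High ranks in single libraries are partly built into a choice by the sum over the same libraries, so they do not show stability. Of the 30, 18 were among the first 30 in each of the 6 libraries, and the first 30 of a single library held 26 or 27 of them. Of ranks 1 to 9, 8 stayed within the first 9 everywhere. The lowest rank of any member was 91, for TCONS_00139185 in 0h replicate 2. The edge of the set is not sharp. Rank 29, n414259, had a sum of 65132 counts and rank 30, TCONS_00020859 (4392 bp), a sum of 64500, with 9465 and 11277 in N, against 9699 and 12114 in 0h and 10067 and 11878 in 8h. Just outside, n270738 (4186 bp) had a sum of 64395, only 105 counts fewer, with 11485 and 12720 in N, against 9421 and 8078 in 0h and 10962 and 11729 in 8h, and n285002 at rank 32 had 63170.

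Stability was read from normalized counts, which are counts divided by the edgeR (TMM) effective library size and brought back to the mean library. Over the 3 condition means a member's range had a median of 0.28 on the log2 scale, against 0.28 for the next 100 and 0.79 for all 39310 lncRNAs tested. The median SD between replicates was 0.13 for the 30, 0.15 for the next 100 and 0.49 for all tested. Most lncRNAs tested have far fewer counts, so the next 100 are the closer comparison, and the ranges of the 30 were close to theirs. In 14 of the 30 (46.7%) the range was under 0.25, against 42 of the next 100 and 9.90% of all tested, and in none was it over 1 (that is, 2-fold), against 1 of the next 100. In 8 of the 30 (26.7%) the range was smaller than the SD between replicates, about the share found among all tested (26.2%).

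With TMM scaling and all libraries, the smallest range was the 0.03 of n422896. It was 0.10 with total counts, where n414259 had a smaller one, and 0.11 without N replicate 1. Its normalized counts were 362611 and 325463 in N, against 361973 and 335011 in 0h and 339083 and 362479 in 8h, and 8h differed from N by 0.03 on the log2 scale (95% interval −0.16 to 0.21). Next were TCONS_00020859, with a range of 0.04 and an 8h to N difference of 0.04 (−0.26 to 0.34), and n414259, with a range of 0.06 and a difference of −0.05 (−0.35 to 0.24). In both of these replicate 2 was the higher in every condition, and the conditions overlapped. The widest range, 0.90, belonged to TCONS_00139185. Its normalized counts were 17019 and 15462 in N, against 20356 and 5807 in 0h and 7515 and 10089 in 8h, so the 0h replicates alone spanned all the other libraries. In the fit its range was 0.88, and it was 1.49 without 0h replicate 1 and 0.68 without 8h replicate 1, where n413706 had a wider one.

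Withdrawal of GDNF was compared as 0h against N with the edgeR quasi-likelihood test and Benjamini-Hochberg adjustment (FDR) over all lncRNAs tested. At an FDR below 0.05 and at least 2-fold, 0 of the 30 members were called, where 0.511% of all lncRNAs tested were called. Without adjustment (P below 0.05), 0 members were called at 2-fold or more, where 6.58% of all were, and 3 at any fold, where 9.91% of all were (1 without N replicate 1 and 5 without 0h replicate 2). Of the next 100, 17 were called at that P at any fold. DESeq2 also called 0 members at an FDR below 0.05 and at least 2-fold. With no limit on the fold, a criterion added after the values were seen, 1 member was called at an FDR below 0.05, where 0.552% of all were, and it was TCONS_00110424. Log2 fold changes ran from −0.65 to 0.44 with a median of 0.06 (−0.01 over all tested, −0.04 over the next 100), 19 above 0 and 11 below, and the median of the 30 turned to −0.02 when N replicate 1 was left out. For 29 members the 95% interval lay within a 2-fold change in either direction, which held for 94 of the next 100 and 20.9% of all tested. The exception was TCONS_00139185, at −0.31 (−1.12 to 0.49). Without 0h replicate 1 it was the 1 member called at the 2-fold criterion.

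Refreshment was compared as 8h against 0h, and this comparison shares the 0h libraries with withdrawal. Both edgeR and DESeq2 called 0 of the 30 at an FDR below 0.05 and at least 2-fold, where edgeR called 0.89% of all lncRNAs tested. With P below 0.05 and no adjustment, 0 members were called at 2-fold or more, where 9.2% of all were. At any fold 12 were called, where 13.7% of all and 34 of the next 100 were. By the same rule DESeq2 called 10.2% of all, the 2 groups alone 5010 of 35288 and a minimum of 50 counts 2617 of 12836. The 12 became 6 without 0h replicate 1, without N replicate 1, with the 2 groups alone or by DESeq2, and 7 without N replicate 2 or with a minimum of 50 counts. The FDR was below 0.05 at any fold for 3 members, where 0.972% of all and 5 of the next 100 were called, and these were TCONS_00012497 and n413870, which were lower in 8h, and n413706, which was higher. In a fit of the 0h and 8h libraries alone 0 of these 3 passed. Log2 fold changes ran from −0.64 to 0.66 with a median of −0.11 (0.00 over all tested, −0.08 over the next 100), 9 above 0 and 21 below. Of ranks 1 to 9, 8 lay below 0, down to −0.37 (n423941). With libraries scaled by their total counts in place of TMM, the median of the 30 was −0.02. The 95% interval lay within 2-fold for 29 members (93 of the next 100, 19.2% of all), the exception being TCONS_00139185 at −0.57 (−1.38 to 0.23).

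Refreshed cultures were also compared with normal ones, 8h against N, which shares libraries with both comparisons above. EdgeR called 0 of the 30 at an FDR below 0.05 and at least 2-fold, where it called 0.214% of all, and 0 at an FDR below 0.05 at any fold, where it called 0.234% of all, and DESeq2 called 0 by both criteria. At an unadjusted P below 0.05, 0 members reached 2-fold, where 8.22% of all did, and 7 were called at any fold, where 12.3% of all were (4 without either N library or by DESeq2). Of the next 100, 18 were called at that P at any fold (13 by DESeq2, which called 8.75% of all). Log2 fold changes ran from −0.88 to 0.50 with a median of −0.13 (0.01 over all tested, −0.14 over the next 100), 10 above 0 and 20 below, and the median was 0.02 without 8h replicate 1. The interval of 29 members lay within 2-fold (94 of the next 100, 19.8% of all), and that of TCONS_00139185 was −1.69 to −0.07 around −0.88 (edgeR FDR 0.363). The plot of log2 fold changes shows the 3 comparisons side by side.

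**Figure D3:**
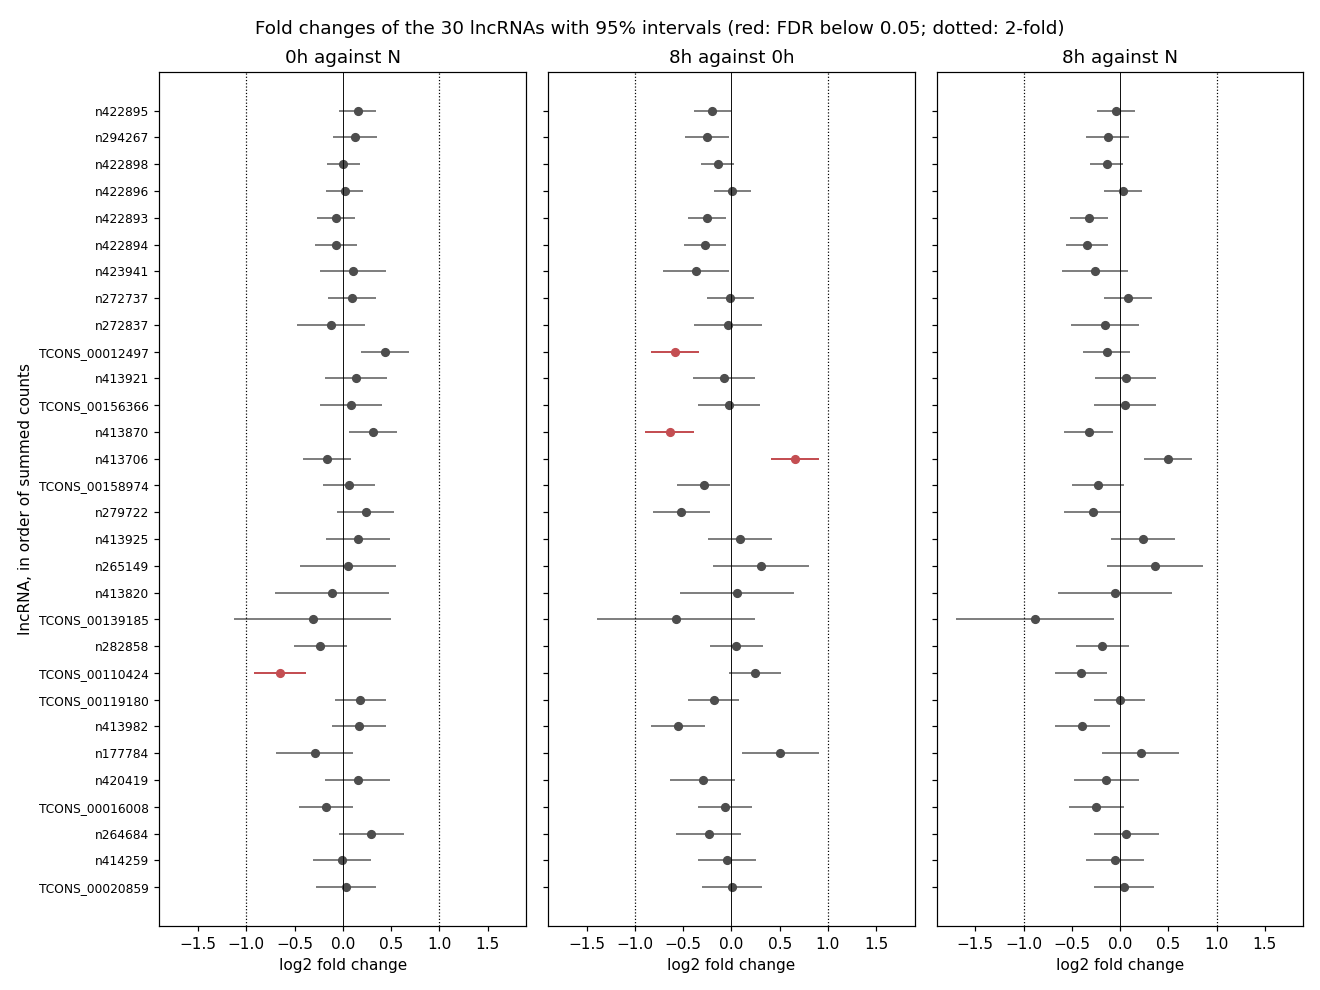
Log2 fold change with its 95% interval (edgeR) for each of the 30 lncRNAs in rank order, for withdrawal (0h against N), refreshment (8h against 0h) and 8h against N. In this fit of all 6 libraries, 29 intervals stay within 2-fold either way in each comparison, and that of TCONS_00139185 reaches beyond.

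A single edgeR test of any difference among N, 0h and 8h called 4 of the 30 at an FDR below 0.05. It called 1.14% of all lncRNAs tested and 7 of the next 100. DESeq2 also called 4 of the 30, where it called 2.49% of all and 9 of the next 100. At an unadjusted P below 0.05 the edgeR test called 9 of the 30, where 14.4% of all and 29 of the next 100 were. With the replicate number as a block the test called 10 of the 30, where 7.06% of all and 27 of the next 100 were. The 4 were TCONS_00012497, n413870, n413706 and TCONS_00110424, 2 known and 2 predicted, and all ranked between 10 and 22.

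TCONS_00012497 had normalized counts of 43895 and 48801 in N, against 63220 and 62533 in 0h and 45178 and 38899 in 8h. Its 0h libraries were above the rest without overlap, and N and 8h overlapped. It was 0.44 higher in 0h than in N on the log2 scale (SE 0.11, edgeR FDR 0.128, or 0.00465 with the replicate block) and fell by 0.58 from 0h to 8h (SE 0.11, FDR 0.0315). The known n413870 (703 bp, RPKM 4161 ± 720) had 23420 and 23352 in N, against 30732 and 27362 in 0h and 18318 and 18978 in 8h. No conditions overlapped, with 0h highest and 8h lowest. From 0h to 8h it fell by 0.64 (SE 0.11, FDR 0.0227), and its value of 0.31 for 0h against N did not pass the test (FDR 0.343).

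The known n413706 (2026 bp, RPKM 1409 ± 361) had 20815 and 20741 normalized counts in N, against 17874 and 19204 in 0h and 28403 and 30190 in 8h. Both 8h libraries were above the other 4. It rose by 0.66 from 0h to 8h (SE 0.11, edgeR FDR 0.0183), and 8h against N was 0.50 (FDR 0.0893, or 0.00206 with the replicate block). The paper's own list of abundant lncRNAs also holds n413706. There its mean was higher in 0h than in N and highest in 8h. Neither withdrawal nor refreshment reached a P below 0.05 for it there. The predicted TCONS_00110424 (1769 bp, RPKM 876.8 ± 184) had 15231 and 16155 in N, against 10196 and 9776 in 0h and 12192 and 11447 in 8h. No conditions overlapped, with N highest and 0h lowest. It fell by 0.65 from N to 0h (SE 0.12, FDR 0.0325), and 8h against 0h was 0.24 (FDR 0.4) and 8h against N −0.41 (FDR 0.185, or 0.0152 with the block). The mean coverage of each of these 4 was over 90%, and that of TCONS_00110424 was 98.16% on average.

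These differences, all under 2-fold, rest on few libraries. When each library was left out in turn, that of TCONS_00110424 kept an FDR below 0.05 in 2 of 6 fits (without either 8h library), at −0.70 to −0.62. Those of TCONS_00012497, at −0.68 to −0.46, and n413706, at 0.61 to 0.72, kept it in 1 of 6 (without 8h replicate 1), and that of n413870, at −0.72 to −0.55, in none. The directions stayed the same. In a fit of the 2 groups alone the edgeR FDR was 0.0817 for n413706 and 0.0925 for n413870, and that of TCONS_00012497 rose above 0.05 there, with total counts and with a minimum of 50 counts (up to 0.105), while TCONS_00110424 stayed below 0.05 in all 8 alternatives other than those leaving out a library. The plot of these 4 lncRNAs by condition gives the single values.

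**Figure D4:**
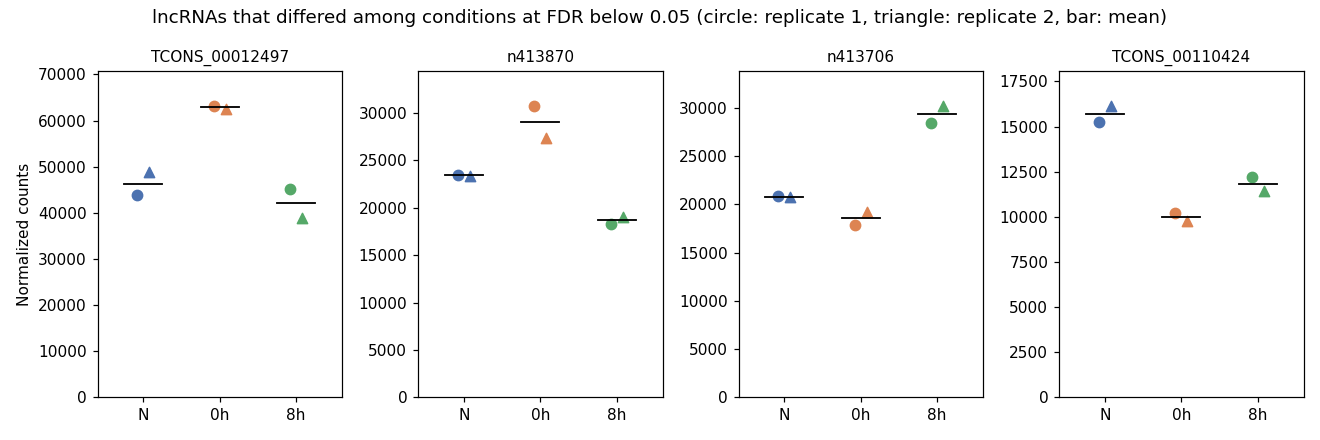
Normalized counts (linear axes from 0) of the 4 lncRNAs that differed among conditions, for N, 0h and 8h, with circles for replicate 1, triangles for replicate 2 and bars for the mean. In 0h TCONS_00012497 and n413870 are highest and TCONS_00110424 is lowest, and n413706 is highest in 8h.

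With the replicate number as a block, more differences under 2-fold passed an FDR of 0.05. There were 2 in withdrawal (2.73% of all tested, 12 of the next 100) and 11 in refreshment (5.25%, 25 of the next 100). For 8h against N there were 6 (3.44%, 15 of the next 100). None of these members' differences reached 2-fold. Of the 11, 9 were lower in 8h than in 0h, n422895, n294267, n422893 and n422894 among them, and 2 were higher, n413706 and n177784. The block was fitted with TMM scaling only. Without the block, the refreshment median of the 30 was −0.11 with TMM and −0.02 with total counts, so small decreases depend on the scaling. Among the 5 with neighbouring numbers, n422893 differed between 8h and N by −0.32 (95% interval without the block −0.51 to −0.13, edgeR FDR 0.151, or 0.00985 with the block) and n422894 by −0.34 (−0.55 to −0.13, FDR 0.169, or 0.0129).

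Replicate 2 was compared with replicate 1 over the 3 conditions, with condition in the model. Neither edgeR nor DESeq2 called a member at an FDR below 0.05 and at least 2-fold (0 of the 30), where edgeR called 1.04% of all lncRNAs tested. At an unadjusted P below 0.05, 0 members reached 2-fold, where 5.13% of all did. At any fold 14 were called, where 13.2% of all and 45 of the next 100 were. An FDR below 0.05 at any fold was found for 5 members, where 2.48% of all and 24 of the next 100 were called. The 5 became 2 without either 0h library, where 678 of 37656 and 600 of 37245 lncRNAs tested were called. Without either 8h library they became 10, where 842 of 37055 and 880 of 37098 were. With no filter 8 were called, where 1422 of 73710 lncRNAs and 30 of the next 100 were. A minimum of 50 counts also gave 8, where 1490 of 12836 lncRNAs and 35 of the next 100 were called. In the main fit the 95% interval lay within 2-fold for all 30, where this held for 34.9% of all and 97 of the next 100. Each side here has 3 libraries, against 2 in the comparisons of conditions, so the counts of calls cannot be set against each other.

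The largest such difference was that of n413820 (814 bp). Its normalized counts were 10816 and 16397 in N, against 9093 and 16060 in 0h and 9839 and 16377 in 8h, with replicate 2 above every replicate 1 value and the conditions alike. Replicate 2 was 0.72 higher on the log2 scale (SE 0.08, edgeR FDR 1.14e-05), while 0h against N gave −0.11 (95% interval −0.70 to 0.47). Next was n272837, 0.36 higher in replicate 2 (SE 0.06, FDR 0.00227), with 0.26 in N, 0.36 in 0h and 0.48 in 8h. Both calls held in all 6 fits that left out a library. The others called were n413921 at 0.29 (FDR 0.0203), n177784 at 0.34 (FDR 0.0389) and n423941 at −0.30 (FDR 0.028), of which n413921 kept its call in 2 of 6 such fits and the other 2 in 4 of 6. For n423941 the N replicates differed by −0.02, the 0h replicates by −0.39 and the 8h replicates by −0.49. The sign was the same in all 3 conditions for 14 of the 30 (46.7%), against 60% of the next 100 and 35.9% of all tested, as the plot of replicate differences shows.

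**Figure D5:**
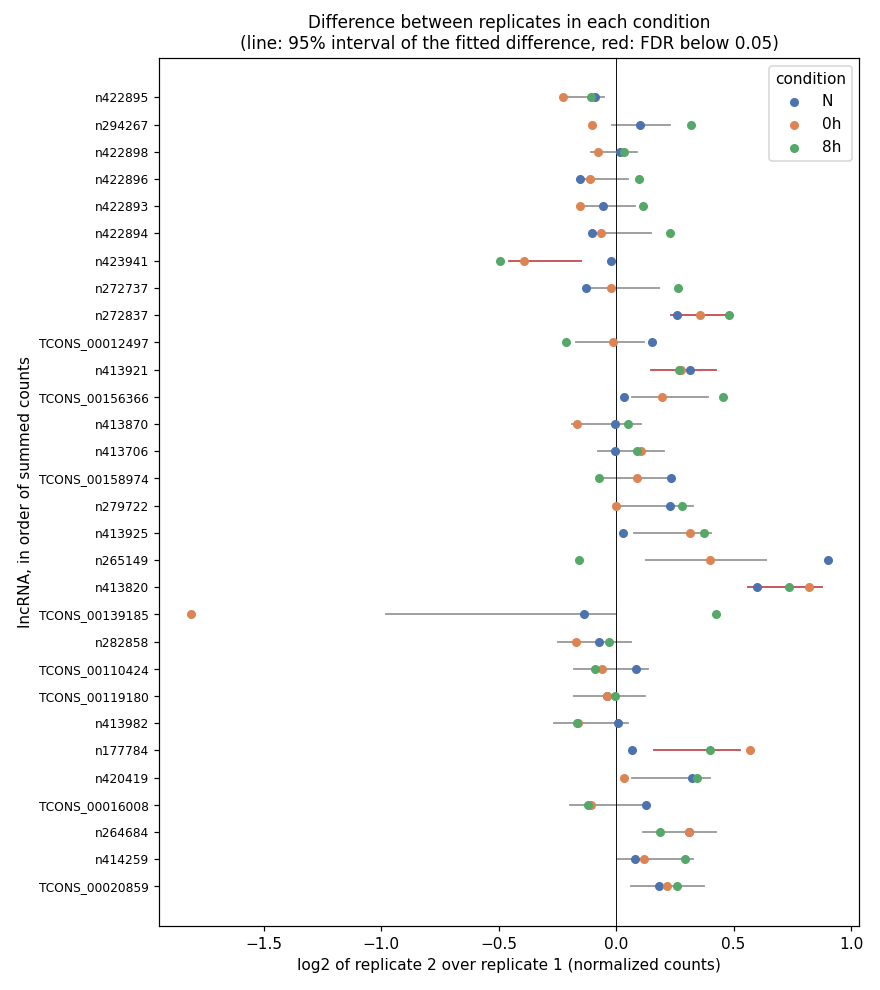
Log2 difference in normalized counts, replicate 2 minus replicate 1, for each of the 30 lncRNAs in rank order, with 1 point per condition. In n413820 all 3 points lie between 0.60 and 0.82, and in TCONS_00139185 they are widest apart.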

How the data were processed

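RNA of 6 SSC cultures was depleted of ribosomal RNA, fragmented, copied from random hexamers and sequenced on an Illumina HiSeq instrument. For every lncRNA the authors deposited a raw count of uniquely mapped reads, a length, a coverage score in percent and an RPKM. Recomputing RPKM from count, length and summed counts gave back the deposited RPKM, which is thus relative to reads on lncRNAs. The deposited coverage score passes 100 in 2 entries and so was used as deposited. Known lncRNAs came from NONCODE (matched with Cuffcompare) and predicted ones from Cufflinks assembly and Coding Potential Calculator. The aligner, the counter and the genome build are not given in the sources used here. An unlisted lncRNA was given 0.

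Groups and replicate numbers were taken from the sample titles. The members and lists were chosen with earlier results of these data known. The named members were the first 10 by counts, those called, the 3 with the smallest and the 3 with the largest range, and ranks 30 and 31. The others were given as ranges or named for a property after their values were seen. Counts were tested with edgeR 4.0.16 (TMM, quasi-likelihood test) in R 4.3.3, in 1 fit of all 6 libraries, on 39310 lncRNAs that had 10 counts or more in 2 or more libraries, with Benjamini-Hochberg adjustment over all of them. The main criterion was an FDR below 0.05 and at least 2-fold (FDR alone for any difference among conditions). Counts by other criteria (FDR below 0.05 at any fold, unadjusted P below 0.05) are named as such. The common biological coefficient of variation was 31.5%. SE values follow from the fold change and its F statistic. The script was tested on simulated data. Tables and plots were made in Python 3.11.15 (pandas 2.3.3, matplotlib 3.10.9). DESeq2 1.42.0, other scalings (DESeq2 size factors, total counts, total counts outside the 30), other filters, the 2 groups alone, a replicate block and leaving out each library were tried.

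The study states 2 independently established lines in all 3 conditions, and the labels number the replicates without saying that a number marks a line, so the blocked values take the number as the line. As a check, the log2 differences of replicate 2 from replicate 1 correlated across lncRNAs tested at 0.16 (N and 0h), 0.174 (N and 8h) and 0.19 (0h and 8h). In the same order the correlations were 0.718, 0.663 and 0.753 over the next 100, and 0.549, 0.149 and 0.241 over the 30. Most lncRNAs tested have far fewer counts than these 2 sets. Depth was 7685843 to 8497549 counts per library. Intervals cover the spread between these samples. No sequence, position or strand of the members was used here, since the files list only identifiers.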

Additional observations from a re-analysis of the deposited data

Results flagged for a closer look

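In 2 members the replicate numbers moved in opposite directions between conditions and by over 2-fold apart, a difference that was not tested with 1 library per number and condition. For TCONS_00139185 the log2 change from N to 0h was 0.26 in replicate 1 and −1.41 in replicate 2, and from 0h to 8h it was −1.44 in replicate 1 and 0.80 in replicate 2. It is the shortest member (285 bp), and its coverage was 53.68% and 55.44% in the 0h replicates. For n265149 the change from N to 8h was 0.96 in replicate 1 and −0.10 in replicate 2, where N replicate 1 had the lowest count, 8314 against 16284 in N replicate 2. Opposite signs of any size were found in 8 of the 30 members in each of the 3 comparisons. They were not counted over the other lncRNAs tested.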

How the results depend on the processing

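At an FDR below 0.05 and at least 2-fold, no member was called in any comparison under DESeq2, the other scalings and filters or the replicate block, and leaving out 1 library gave 0 to 1 in withdrawal (1, TCONS_00139185, without 0h replicate 1). At an FDR below 0.05 at any fold, which was added after seeing the data, the calls were 1 in withdrawal, 3 in refreshment, 0 for 8h against N and 5 between replicate numbers, and the replicate block with this criterion gave 2, 11 and 6 in the first 3. By the same criterion the 3 in refreshment became 0 with the 2 groups alone, 0 to 2 when 1 library was left out, 4 by DESeq2 and 5 with no filter, and the 1 in withdrawal became 0 to 2 when 1 library was left out and 2 with no filter. For 8h against N it was 2 with no filter, where 621 of 73710 lncRNAs were called, and 1 with total counts, where 95 of 39310 were. In refreshment DESeq2 called 713 of 39310 lncRNAs at this criterion, and no filter gave 1091 of 73710. In withdrawal no filter gave 640 of 73710. For any difference among conditions the 4 calls became 7 with no filter on low counts, 10 with the replicate block, 3 with a minimum of 50 counts or with total counts, and 0 to 3 when 1 library was left out (0 without either N library). For any difference, no filter called 1655 of 73710 lncRNAs, a minimum of 50 counts 468 of 12836 and total counts 432 of 39310. In each of the 3 comparisons of conditions, fewer members had a 95% interval within 2-fold when some single libraries were left out. Ranking by mean RPKM kept 17 members, and ranking by TMM-normalized sums 29 (n270738 in place of TCONS_00020859). The share of reads was 34.2% to 34.8% without single libraries and 34.7% with the lncRNAs set aside left out of the total. Of the fold changes of single members below an FDR of 0.05, refitted under each alternative, 83 kept direction and side of the threshold, 33 lost the threshold and none reversed. Of the ranges over conditions, which have no direction, 356 kept their side, 23 lost it and 11 gained it. Over all lncRNAs tested, calls of any difference ranged from 97 (without N replicate 2) to 2776 (replicate block) around 447, withdrawal from 21 to 644 around 201, refreshment from 11 to 1248 around 350, 8h against N from 1 to 828 around 84 and replicate numbers from 199 to 570 around 408. The causes were not tested. With 2 libraries per condition, changes well under 2-fold are at the limit of what could be called, and whether members share reads with each other or with mRNAs was not tested.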
